A study of Mus musculus with 54 samples.

Results

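Spermatid differentiation relies on transcription regulators that are made mainly or only in the testis, and 9 of their genes are described here: Crem, Fhl5, Rfx2, Tbpl1, Taf7l, Sox30, Ybx2, Brdt and Mybl1. The genes were taken by symbol for their known role, not by a threshold on a value, and all 9 were present among the 23284 genes counted in each expression table. Expression had been measured by RNA-seq in C57BL/6 mice of 3 months, in germ cell-enriched suspensions of whole testis and in purified round spermatids (RS) and spermatocytes (SC). The mice had both copies of Ctcf and of Boris (WT), 1 lost Ctcf copy with Boris intact (CTCF HET, Ctcf+/-Boris+/+), both Boris copies lost with Ctcf intact (BORIS KO, Ctcf+/+Boris-/-), or 1 Ctcf and both Boris copies lost together (CM, Ctcf+/-Boris-/-, also named DKO). CTCF is a zinc finger protein that anchors chromatin loops, and BORIS, encoded by Ctcfl, is its testis-specific paralogue. The Ctcf copy was lost in the whole animal, so every cell type of a CTCF HET or CM testis carried this loss, and since embryos without CTCF die, CM mice keep the other copy. Each whole testis library came from 1 preparation of germ cells pooled from 4 mice, and there were 3 preparations of each genotype. RS and SC were represented by 3 libraries for each genotype, except for 2 of WT SC. The whole testis RNA had been depleted of ribosomal RNA and the RNA of purified cells selected by poly(A), on different sequencing platforms, so levels are compared only within each of the 2 tables. Peaks of CTCF, BORIS, RNA polymerase II (Pol2) and trimethylated lysine 4 of histone H3 (H3K4me3, a mark of active promoters) had been called in WT germ cells, and all but BORIS also in CM.

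Spermatogenesis runs from spermatogonia through meiosis in spermatocytes to haploid round spermatids, which then condense their nuclei and build a flagellum. Because transcription stops as the nucleus condenses, much of the message for late spermatids is made early and stored. Mybl1 (A-MYB, chr1:9657496-9690290 in mm9, minus strand) is a master activator of the pachytene stage of meiosis, and Rfx2 (chr17:56915320-56970431, minus strand) activates genes of cilia and flagella. Sox30 (chr11:45793812-45831496, plus strand) is needed for the spermatid programme. CREM (Crem, chr18:3266046-3337746, minus strand) switches on genes of spermatids, and FHL5, also called ACT (Fhl5, chr4:25127055-25170023, minus strand), is its coactivator. Tbpl1 (chr10:22423685-22451744, minus strand) encodes TRF2, a relative of the TATA-binding protein, and Taf7l (chrX:130994657-131011029, minus strand) a testis form of the TFIID subunit TAF7. Brdt (chr5:107760178-107816077, plus strand) encodes a bromodomain reader of acetylated histones, and Ybx2 (MSY2, chr11:69749298-69755107, plus strand) a protein that binds DNA and stored messenger RNA.

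Total counts ran from 10437683 to 42055813 per library in whole testis and from 47740650 to 98545423 in the purified cells. Ctcf, in CPM (counts relative to the total of each library, scaled by the TMM method of edgeR), lay between 22.3 and 30.2 in CTCF HET testis and between 24.0 and 27.4 in CM testis, below the 39.9 to 47.0 of WT. In the purified cells Ctcf did not follow the labels in this way: it was at 21.6 to 33.4 CPM in CTCF HET RS and 39.5 to 172 in CM RS against 29.4 to 48.7 in WT RS, and at 32.3 to 52.4 in CTCF HET SC and 33.0 to 85.9 in CM SC against 33.3 and 35.2 in WT SC. In BORIS KO, Ctcf lay under every WT library of the same preparation. It was at 31.8 to 38.4 CPM in testis, 24.4 to 29.0 in RS and 29.9 to 31.8 in SC. Rltpr, the gene next to Ctcf, was at 28.1 to 104 CPM in every library with a lost Ctcf copy and at 0.60 to 2.93 in the rest. Ctcfl was low throughout, at 0.16 to 0.40 CPM in BORIS KO testis against 0.53 to 0.69 in WT testis and at 1.97 to 2.39 in BORIS KO RS against 2.84 to 5.12 in WT RS. Replicate 1 of CM RS (172 CPM of Ctcf) and replicate 1 of CM SC (85.9 CPM) stood apart from the other CM libraries, and without them Ctcf in CM RS and CM SC still overlapped WT. Among the purified libraries, Rltpr thus set those with a lost Ctcf copy apart, and Ctcf RNA did not. Their groups are named by label. CM counts without replicate 1 of CM RS or of CM SC are given where they differed. Genes detected were fewer in CTCF HET SC (12018 to 13406), CM SC (14145 to 16666) and CM RS (14932 to 16670) than in the other purified libraries (17504 to 18978). Round spermatid markers set the purified cell types apart: 13 of them summed to between 2415 and 2670 CPM in WT RS and to 51.7 and 52.5 CPM in WT SC. Spermatocyte markers did so far less. The 10 of them summed to 5051 and 6228 CPM in WT SC and to between 3908 and 4459 CPM in WT RS. In CM RS they reached 3788 to 5655 CPM, which overlapped WT SC. By the labels, RS were 93.7% ± 2.3 and SC 81.5% ± 3.7 pure.

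In WT RS, levels per length (CPM per kb of exon) placed Ybx2 far above the other members, at 823, 781 and 767 in replicates 1 to 3. Tbpl1 followed at 261, 296 and 301 and Brdt at 212, 219.7 and 229.9. These top 3 did not overlap. The order depends on the length used, most for Crem, whose exons together span 5937 bp and whose longest coding transcript 2931 bp. By transcript length Crem would stand higher in each order given here. Sox30 was at 135, 145 and 129.8, Crem at 119, 144 and 137 and Rfx2 at 136, 103 and 95.1 CPM per kb, and these 3 could not be ordered by their libraries. Fhl5 and Taf7l also overlapped, at 31.1, 36.2 and 37.2 and at 30.9, 29.2 and 31.5 CPM per kb, and Mybl1 was the lowest at 21.2, 23.8 and 23.8. In WT SC, Ybx2 again led at 1418 and 1661 CPM per kb, while Fhl5 (0.887 and 0.723) and Taf7l (0.503 and 0.536) were both below 1. Between them, Brdt (220.2 and 202) and Tbpl1 (199.6 and 186) stood above Rfx2 (115 and 131), Sox30 (83.3 and 85.8), Mybl1 (65.5 and 55.3) and Crem (47.7 and 40.9). In SC no neighbours in this order overlapped, with only 2 libraries each. In whole testis, Ybx2 was at 653, 769 and 968 CPM per kb, and Fhl5 came next at 265, 241 and 188. Tbpl1 (66.6, 99.2 and 111) and Rfx2 (78.6, 81.1 and 115) overlapped, as did Sox30 (50.8, 54.1 and 58.6) and Brdt (38.5, 52.4 and 64.6). Crem was at 21.7, 32.2 and 34.5, and the lowest levels were those of Mybl1 (5.65, 7.14 and 6.41) and Taf7l (4.82, 5.79 and 6.24), which overlapped.

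A CTCF peak was held by 6 of the 9 members in WT germ cells, within the gene or 2 kb of it, and a BORIS peak by 3. The share of all genes by that rule is not given, and the rule covers more bases in longer genes, so these counts are not read as particular to the members. Peaks within 1 kb of a transcription start were found at 3 members for CTCF (27.2% of 21872 annotated genes) and at 3 for BORIS (13.8%). CTCF and BORIS share their zinc fingers, and both recognise a GC-rich motif whose core is searched here as AGNNGGC on either strand. That core occurs in 82.4% of 301-bp windows around WT CTCF summits and in 87.0% of those around BORIS summits, and in 59.8% of 300-bp promoters of all genes. The sequences of 4 such peaks are given from mm9, 5′ to 3′ on the strand of the gene, with each match to the core in capitals. Ybx2 had its BORIS peak 216 bp before the start with no CTCF peak over it, and its CTCF peak 1458 bp before the start, the second highest of the set. Rfx2 had a CTCF peak before its start that encloses a BORIS peak (chr17:56970654-56970820) and had no overlapping CM peak, and a CTCF peak in an intron that did have one. These 4 are shown because they pair a BORIS site with a CTCF site, and a CTCF site absent from the CM list with one kept in it, at genes that were lower in CM testis.
Ybx2 BORIS peak, chr11:69748977-69749175: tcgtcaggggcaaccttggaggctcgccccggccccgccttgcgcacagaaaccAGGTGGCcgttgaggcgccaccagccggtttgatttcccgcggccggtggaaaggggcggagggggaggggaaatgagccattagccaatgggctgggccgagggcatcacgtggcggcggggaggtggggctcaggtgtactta
Ybx2 CTCF peak, centre, chr11:69747765-69747915: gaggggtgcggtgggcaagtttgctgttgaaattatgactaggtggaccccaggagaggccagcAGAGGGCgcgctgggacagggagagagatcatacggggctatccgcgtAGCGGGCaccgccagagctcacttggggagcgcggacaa
Rfx2 CTCF peak before the start, chr17:56970649-56970897: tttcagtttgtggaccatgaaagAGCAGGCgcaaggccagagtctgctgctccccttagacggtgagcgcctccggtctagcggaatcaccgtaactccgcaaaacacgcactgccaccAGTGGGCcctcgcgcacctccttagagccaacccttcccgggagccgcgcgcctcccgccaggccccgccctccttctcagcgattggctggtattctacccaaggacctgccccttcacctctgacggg
Rfx2 CTCF peak in an intron, centre, chr17:56917110-56917260: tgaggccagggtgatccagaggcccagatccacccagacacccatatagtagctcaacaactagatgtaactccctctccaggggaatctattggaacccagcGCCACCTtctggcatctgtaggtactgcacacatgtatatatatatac
The Ybx2 CTCF centre and the Rfx2 promoter peak each held 2 matches, and the other 2 sequences 1 each. A match is only a match of letters and was not shown to be bound.

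RefSeq promoters (GRCm38.p6, 250 bases before to 50 after the start) were matched for 7 of the 9 members, all but Crem and Mybl1. Taf7l and Fhl5, which had neither a CTCF nor a BORIS peak, and Tbpl1 held no AGNNGGC there, and Rfx2, Sox30, Ybx2 and Brdt held 1 to 3 matches. Taf7l alone among these held the TATA box letters TATAAA, which 13.6% of all promoters hold, in overlapping matches on both strands. The stretch lies near the middle of the 250 bases before the start, not close to the start, and whether it serves as a TATA box was not tested. These 250 bases are given on the strand of Taf7l, with the stretch in capitals.
Taf7l promoter, chrX:134476491-134476740: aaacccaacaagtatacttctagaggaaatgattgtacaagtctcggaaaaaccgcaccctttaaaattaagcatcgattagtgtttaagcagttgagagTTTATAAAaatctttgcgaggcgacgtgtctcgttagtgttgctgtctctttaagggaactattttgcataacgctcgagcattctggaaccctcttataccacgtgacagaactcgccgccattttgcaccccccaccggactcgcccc
On either strand, the half-site of the cAMP response element that CREM binds (TGACG, part of the full element TGACGTCA, in 20.8% of all promoters) was found in the promoter of Rfx2, and the MYB letters TAACNG (23.3%) in those of Rfx2, Sox30 and one start of Fhl5. The X-box half-site GTTGCC of RFX factors (12.5%) was found at Rfx2 and at one start of Ybx2, and the full element (1.79%) at none of the 7. No match says only that the letters are not in this window.

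The RS and SC comparison in WT asks which members are raised after meiosis. Taf7l, Fhl5, Crem, Sox30 and Tbpl1 were higher in RS, Mybl1 and Ybx2 were higher in SC, and Rfx2 and Brdt did not pass the test. Taf7l stood at 69.3, 65.5 and 70.6 CPM in WT RS and at 1.13 and 1.20 CPM in WT SC. Its difference was 59.7-fold, a log2 fold change of 5.90 (SE 0.15, adjusted p = 1.32e-07). Fhl5 was close to it, at 36.4, 42.3 and 43.5 CPM in RS and 1.04 and 0.847 CPM in SC. Both genes were barely detected in SC and clearly present in RS, with no overlap between libraries, and Fhl5 rose 44.0-fold (log2 fold change 5.46, SE 0.19, adjusted p = 4.86e-07). Crem, the partner of FHL5, was already present in SC at 283 and 243 CPM and reached 709, 857 and 812 CPM in RS, a rise of 3.07-fold. Sox30 (1.65-fold) and Tbpl1 (1.51-fold) rose less, with log2 fold changes of 0.72 (SE 0.090, adjusted p = 0.000259) and 0.60 (SE 0.100, adjusted p = 0.00127). Mybl1 went the other way, from 352 and 297 CPM in SC to 114, 128 and 128 CPM in RS, 2.59-fold lower (log2 fold change -1.37, SE 0.11, adjusted p = 2.81e-05). Ybx2 stood at 2673 and 3130.1 CPM in SC and 1552, 1472 and 1447 CPM in RS, 1.91-fold lower (log2 fold change -0.93, SE 0.091, adjusted p = 6.91e-05). Rfx2 (log2 fold change -0.11, SE 0.16, adjusted p = 0.534) and Brdt (0.091, SE 0.087, adjusted p = 0.374) overlapped between the 2 cell types. Of all genes tested, 35.8% were higher and 34.2% lower in RS, against 5 and 2 of the 9 members. By RNA, 5 of these spermatid regulators were thus higher in RS than in SC, and Mybl1 and Ybx2 were not.

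Genes known to depend on these regulators were ordered in the same comparison. The CREM-dependent list holds known genes of spermatids and the A-MYB list genes of pachytene spermatocytes. Their directions here were thus largely set by the choice of list. All 12 listed CREM-dependent spermatid genes were higher in WT RS than in WT SC, with a median log2 fold change of 4.39 against 0.015 over all genes tested. Examples were Akap4, a scaffold of the sperm fibrous sheath (5.89, adjusted p = 1.18e-07), Odf1 of the outer dense fibres (5.80, 1.18e-07) and the protamine Prm2 (4.21, 1.63e-07). Of 12 genes that A-MYB is known to activate, 9 were lower and 2 higher in RS, with a median of -1.45. Piwil1 (log2 fold change -4.88), Tdrd5 (-5.41) and Tdrd1 (-3.86), all of the piRNA pathway, were the clearest of them. Of 13 flagellar and ciliary genes of the kind RFX2 regulates, 3 were higher and 3 lower, among them Tekt2 (2.43), Tekt4 (2.28) and the radial spoke gene Rsph1 (-1.62). Other testis regulators of the programme (15 tested) gave 8 higher and 5 lower, led by Sox5 (5.02), Spz1 (5.66) and Creb3l4 (4.10). Paralogues and broadly expressed counterparts of the members (20 tested) gave 8 in each direction, with Rfx3 higher (3.09) in RS. Sox5 stands in both of the last 2 lists. Other genes are shared too, among them Kif17 (CREM-dependent genes and other regulators) and Fhl4 (CREM-dependent genes and paralogues). Some CREM-dependent genes, such as Akap4 and Odf1, are also among the round spermatid markers. These 2 lists are therefore not independent wherever both are given.

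**Figure D1:**
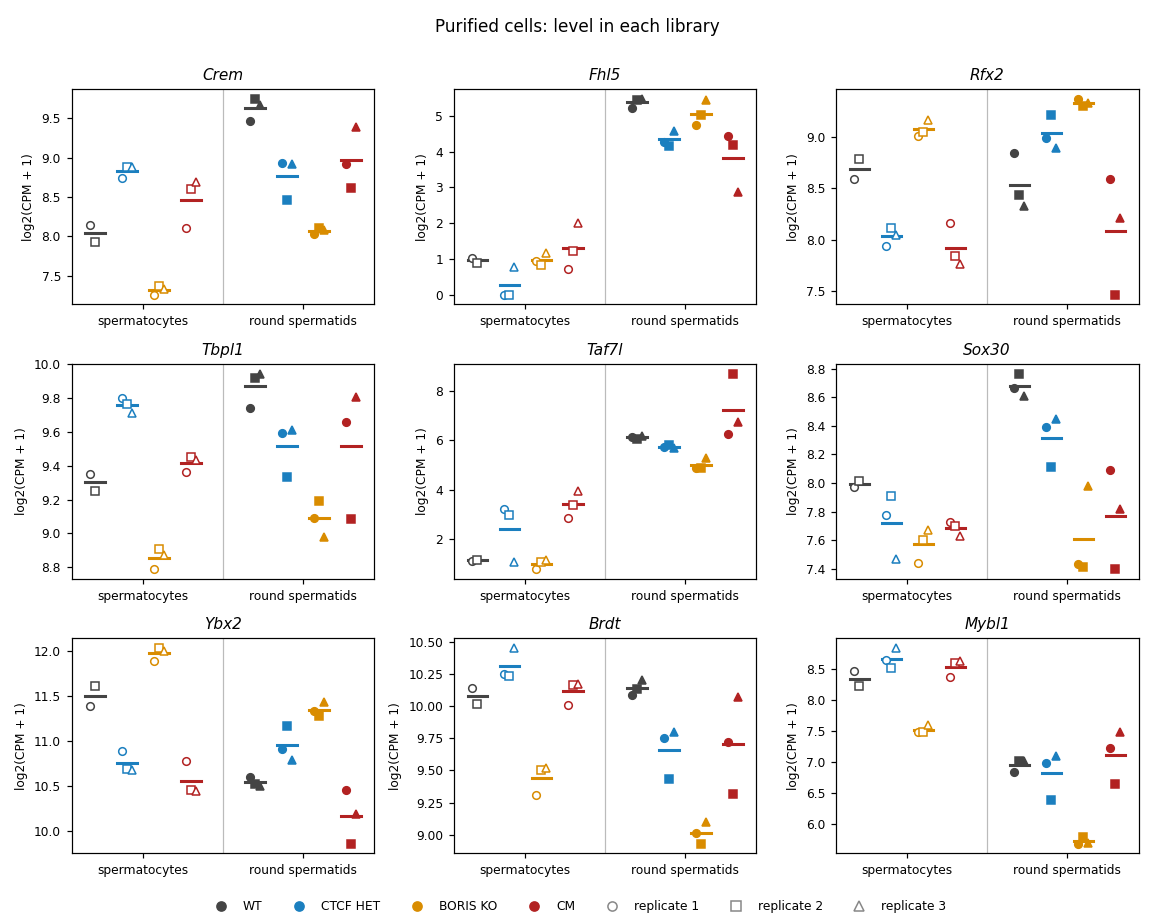
Level of each of the 9 genes in every purified library, as log2(CPM + 1), with SC as open symbols on the left and RS as filled symbols on the right of each panel. Colours mark the genotype and short lines the mean of 2 or 3 libraries. Fhl5 and Taf7l are higher in RS than in SC in all 4 genotypes, and Mybl1 is lower in RS than in SC in all 4.

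The same contrast within the libraries labelled as each mutant genotype kept Fhl5 and Taf7l higher in RS and Mybl1 lower. In CTCF HET, 4 members were higher in RS (29.7% of all genes) and 2 lower (23.9%). Fhl5 read 0 in 2 of the 3 CTCF HET SC libraries and 0.720 CPM in the third, so its log2 fold change of 6.44 rests on 33 counts in SC. Crem, 3.07-fold higher in WT RS, had a log2 fold change of 0.0025 in CTCF HET (adjusted p = 0.990). In a fit that takes out the trend with GC content of each library, described with the genotype comparisons in RS, Ybx2 was lower in CTCF HET RS than in CTCF HET SC (-1.25, adjusted p = 0.000339) in place of 0.26, and Rfx2 (-0.054 in place of 1.06) and Sox30 (-0.017 in place of 0.64) were no longer called. The CTCF HET libraries of Crem were at 426, 471 and 471 CPM in SC and 489, 351 and 484 CPM in RS, so that the groups overlapped. In BORIS KO, 5 members were higher in RS (41.7% of all genes) and 3 lower (41.6%), and Crem was 1.74-fold higher (log2 fold change 0.80, SE 0.051, adjusted p = 7.06e-07). In CM, 2 members were higher (16% of all genes) and 1 lower (11.9%). Taf7l was 20.5-fold higher in CM RS than in CM SC (log2 fold change 4.36, SE 0.77, adjusted p = 0.00565), and Fhl5 8.68-fold (log2 fold change 3.12, SE 0.73, adjusted p = 0.0165). Mybl1 was 2.65-fold lower, and Crem had a log2 fold change of 0.50 (SE 0.26, adjusted p = 0.195). Without replicate 2 of CM SC, 2 of these 3 calls held. In a fit of all groups together, 6 members were called in CM.

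Whether the RS to SC difference itself changed in the libraries labelled CM, where Ctcf RNA overlapped or exceeded that of WT, was tested as an interaction of genotype and cell type, in which 3.51% of all genes were called. edgeR called 0 of the 9 members, and 3 had an unadjusted p under 0.05 (2602 of 17077 genes). These were Crem, at -1.10 (SE 0.33, adjusted p = 0.108) for the CM minus WT difference on the log2 scale, Fhl5 at -2.31 (SE 0.79, adjusted p = 0.174) and Sox30 at -0.61 (SE 0.25, adjusted p = 0.275). In the CREM-dependent list, 3 of 12 genes were called and all were lower, with a list median of -1.62 against 0.097 over all genes. Nearly all calls had this direction: over all genes 586 were lower and 13 higher. Leaving out replicate 2 of CM RS or replicate 1 of CM SC gave 1 called member.

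In whole testis the CM comparison asks what the combined loss does to the members. Sox30, Fhl5, Ybx2 and Rfx2 were each more than 2-fold lower in CM than in WT, while Taf7l and Mybl1 overlapped WT. Of the 9 members 4 passed the test, and all 4 were lower, against 8.8% of all genes. Sox30 read 152, 162 and 176 CPM in WT replicates 1 to 3 and 63.6, 81.4 and 70.6 CPM in CM. Every CM library was under every WT library, at 2.33-fold lower (log2 fold change -1.22, SE 0.23, adjusted p = 0.0159). Fhl5 read 310.1, 282 and 220.1 CPM in WT and 78.5, 143 and 128 CPM in CM, without overlap, and was 2.36-fold lower (-1.24, SE 0.29, adjusted p = 0.0209). Ybx2 read 1230.1, 1450.3 and 1825 CPM in WT and 473, 882 and 729 CPM in CM, with replicate 1 the lowest CM library, and was 2.22-fold lower (-1.15, SE 0.32, adjusted p = 0.0334). Rfx2 read 264, 272 and 384 CPM in WT and 163, 163 and 143 CPM in CM, 2.02-fold lower (-1.02, SE 0.25, adjusted p = 0.0236). The CM values of Rfx2 lay close together and well under the lowest WT library. In bulk RNA, fewer cells of a type and less RNA per cell cannot be told apart. The HET, KO and CM comparisons share the same WT libraries.

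The other 5 members did not pass the test in CM testis. Crem, at 129, 191 and 205 CPM in WT and 47.1, 126 and 122 CPM in CM, had all CM libraries under all WT libraries, with replicate 1 of CM the farthest from the rest (log2 fold change -0.87, SE 0.40, adjusted p = 0.138). Tbpl1 overlapped, at 218, 324 and 362 CPM in WT and 108, 235 and 193 CPM in CM (log2 fold change -0.79, SE 0.36, adjusted p = 0.126). Same-numbered testis libraries deviated together, and with the replicate number as a block Crem (-0.97, adjusted p = 0.00605) and Tbpl1 (-0.83, adjusted p = 0.0135) also passed, giving 6 called members. Brdt, at 197, 268 and 330.3 CPM in WT and 149, 236 and 199 CPM in CM, had a log2 fold change of -0.48 (SE 0.30, adjusted p = 0.249). Mybl1 (23.0, 41.4 and 30.7 CPM in CM against 30.3, 38.4 and 34.5 in WT) and Taf7l (8.48, 13.9 and 13.4 against 10.8, 13.0 and 14.0) overlapped, with log2 fold changes of -0.15 and -0.12. The median over the 9 members was -0.87, and over all genes 0.0035. Without WT replicate 2, WT replicate 3 or CM replicate 3, 0 members passed in edgeR, and without WT replicate 1 only 2 did. Over all alternatives the adjusted p ran from 3.86e-05 to 0.0677 for Sox30, from 0.000749 to 0.0805 for Fhl5, from 0.00191 to 0.0914 for Rfx2 and from 0.00368 to 0.119 for Ybx2.

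**Figure D2:**
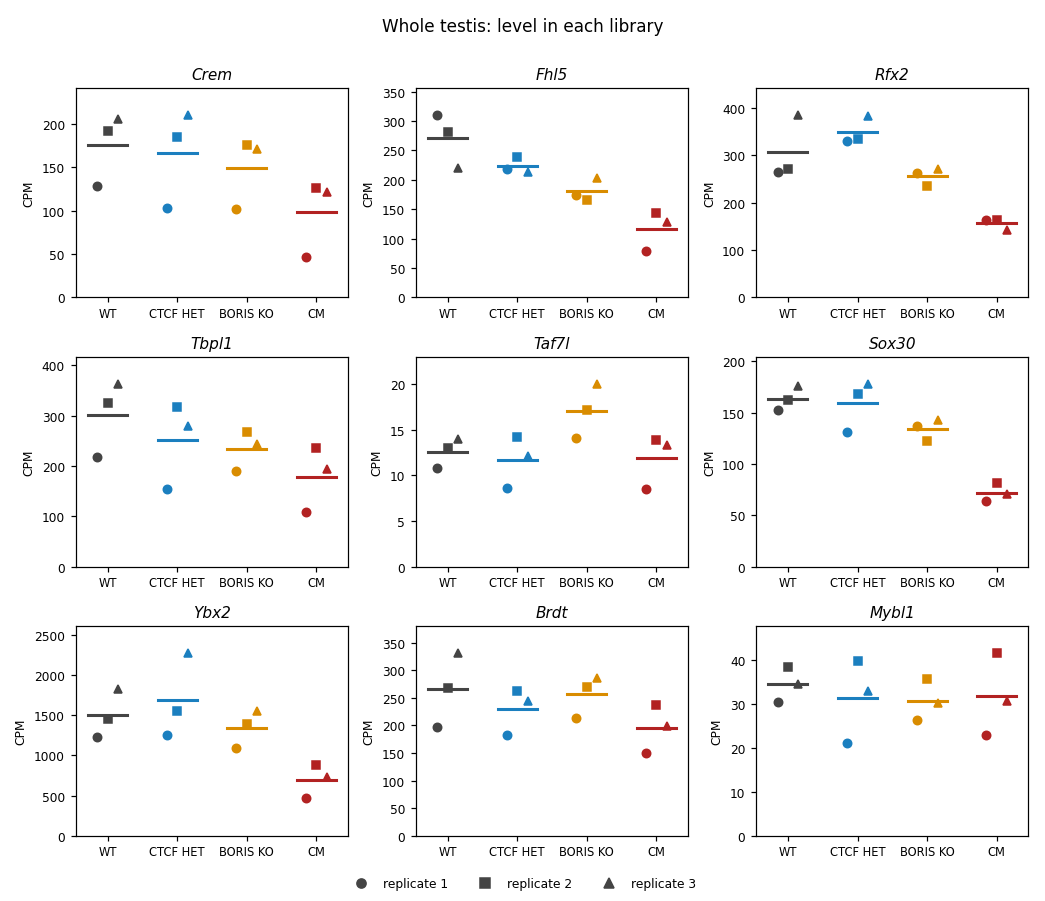
Level of each of the 9 genes in whole testis in CPM, with 1 panel per gene, the 4 genotypes on the x axis, a marker for each replicate number and a line at the mean of 3 libraries. The CM libraries lie under all WT libraries for Crem, Fhl5, Rfx2, Sox30 and Ybx2 and overlap them for Taf7l and Mybl1. The share of all genes without overlap is not given.

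Markers of other cells moved in the same CM libraries. The 13 round spermatid markers summed to 2394, 8379 and 9413 CPM in CM replicates 1 to 3, against 11548 to 17287 CPM in WT, and 10 spermatocyte markers to between 459 and 823 CPM against 911 to 992. Leydig cell markers (7 genes) summed to between 1879 and 3773 CPM in CM against 367 to 636 in WT, and 8 Sertoli cell markers to between 653 and 1387 CPM against 260 to 429. None of these markers was at 0 in a testis library. Their part in the lower levels of Sox30, Fhl5, Ybx2, Rfx2 and Crem was not tested. Among the lists, 9 of 12 CREM-dependent genes were lower in CM testis (median log2 fold change -1.24), including Smcp of the sperm mitochondrial capsule (-1.58), the kinesin Kif17 (-1.22), which carries FHL5, and the spermatid chaperone Hspa1l (-1.25). Of 13 flagellar genes, 5 were lower, among them Spag17 (-1.09), Tekt4 (-1.03) and Dnali1 (-0.81). Of the 12 A-MYB genes edgeR called 0 and DESeq2 2, and 2 had an unadjusted p under 0.05 (6789 of 16378 genes). Ccna1 came nearest (-0.69, adjusted p = 0.0582). Other regulators gave 4 lower of 15, among them Sox5 (-1.09) and Mlf1 (-1.02). Of 20 paralogues, 3 were lower (Sox5, Fhl4 and Sox6) and 1 higher.

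In whole testis neither single mutant had a called member in the fits without a replicate block. In CTCF HET, edgeR and DESeq2 each called 0 of 9 (0.00621% of all genes in edgeR). An unadjusted p under 0.05 was held by 0 members and by 424 of 16097 genes. All 9 CTCF HET groups overlapped WT. Their median log2 fold change was -0.11. In BORIS KO, edgeR and DESeq2 called 0 of 9 (0.0551% of all genes in edgeR). An unadjusted p under 0.05 was held by 2717 of 16344 genes, and among the members by 1. That gene was Fhl5, at 174, 166 and 204 CPM in BORIS KO against 310.1, 282 and 220.1 in WT, with no overlap (log2 fold change -0.58, SE 0.17, adjusted p = 0.214). With the replicate block its adjusted p was 0.0439. Sox30 (137, 123 and 143 CPM, log2 fold change -0.30) was under, and Taf7l (14.1, 17.2 and 20.0 CPM, 0.43) above, every WT library, without passing the test. Between CM and BORIS KO, which differ in 1 Ctcf copy, edgeR called 0 members (0.006% of all genes). DESeq2 called 3 (1201 genes in all), and 4 had an unadjusted p under 0.05 (3594 of 16655 genes). With the replicate block, Sox30 (-0.94, adjusted p = 0.0378) and Ybx2 (-1.01, adjusted p = 0.04996) passed.

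In purified RS, BORIS KO had the most called members. In BORIS KO RS 6 of the 9 members were lower (29% of all genes) and 2 higher (26.8%). Crem, at 709, 857 and 812 CPM in WT, read 260.1, 275 and 269.9 CPM in BORIS KO. The 3 BORIS KO libraries lay close together, 2.88-fold below WT (log2 fold change -1.53, SE 0.094, adjusted p = 5.90e-06). Mybl1 fell from 114, 128 and 128 to 50.3, 54.2 and 50.5 CPM, 2.32-fold (-1.22, SE 0.099, adjusted p = 2.10e-05). Brdt went from 1086, 1124 and 1176 to 517, 487 and 549 CPM (-1.09, SE 0.075, adjusted p = 1.00e-05) and Sox30 from 405, 434 and 389 to 172, 169 and 251 CPM (-1.02, SE 0.14, adjusted p = 0.000261). Neither of these overlapped WT. Taf7l, at 69.3, 65.5 and 70.6 CPM in WT, read 28.7, 28.1 and 37.6 CPM (-1.09, SE 0.12, adjusted p = 9.43e-05), and Tbpl1, at 854, 967 and 984 CPM in WT, 544, 585 and 504 CPM (-0.74, SE 0.098, adjusted p = 0.000256). Ybx2 and Rfx2 were the 2 that rose. Ybx2 went from 1552, 1472 and 1447 to 2574, 2489 and 2761 CPM, 1.80-fold (0.84, SE 0.066, adjusted p = 1.77e-05), and Rfx2 from 457, 345 and 319 to 659, 629 and 639 CPM, 1.77-fold (0.82, SE 0.13, adjusted p = 0.000555). Fhl5 overlapped WT (25.9, 31.5 and 42.3 CPM in BORIS KO, log2 fold change -0.26, SE 0.16, adjusted p = 0.195).

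The base composition of the transcripts moved with these differences. Ybx2 (63.4% G and C in its longest coding transcript, above 99.0% of genes) and Rfx2 (58.5%) are the most GC-rich members, Sox30 holds 54.2%, and the rest lie between 37.0% (Mybl1, above 1.04% of genes) and 45.0%. In every BORIS KO RS library, genes of high GC content (54.6% or more) were higher than those of low GC content (44.6% or less), relative to the WT mean, by 1.45 to 1.57 on the log2 scale. With an offset that removes the trend with GC from each library, chosen after the data were seen, Crem (-0.82), Sox30 (-1.54), Brdt (-0.56) and Taf7l (-0.46) remained lower and called in BORIS KO RS. Ybx2 turned from higher to lower (-0.54, adjusted p = 0.00309). Rfx2 (-0.16), Tbpl1 (-0.11) and Mybl1 (0.033) were no longer called. Marker sums differed as well: 10 spermatocyte markers summed to between 1463 and 1541 CPM in BORIS KO RS against 3908 to 4459 in WT RS, and 13 round spermatid markers to between 1495 and 1973 against 2415 to 2670, with none at 0. Their part in the member values was not tested.

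**Figure D3:**
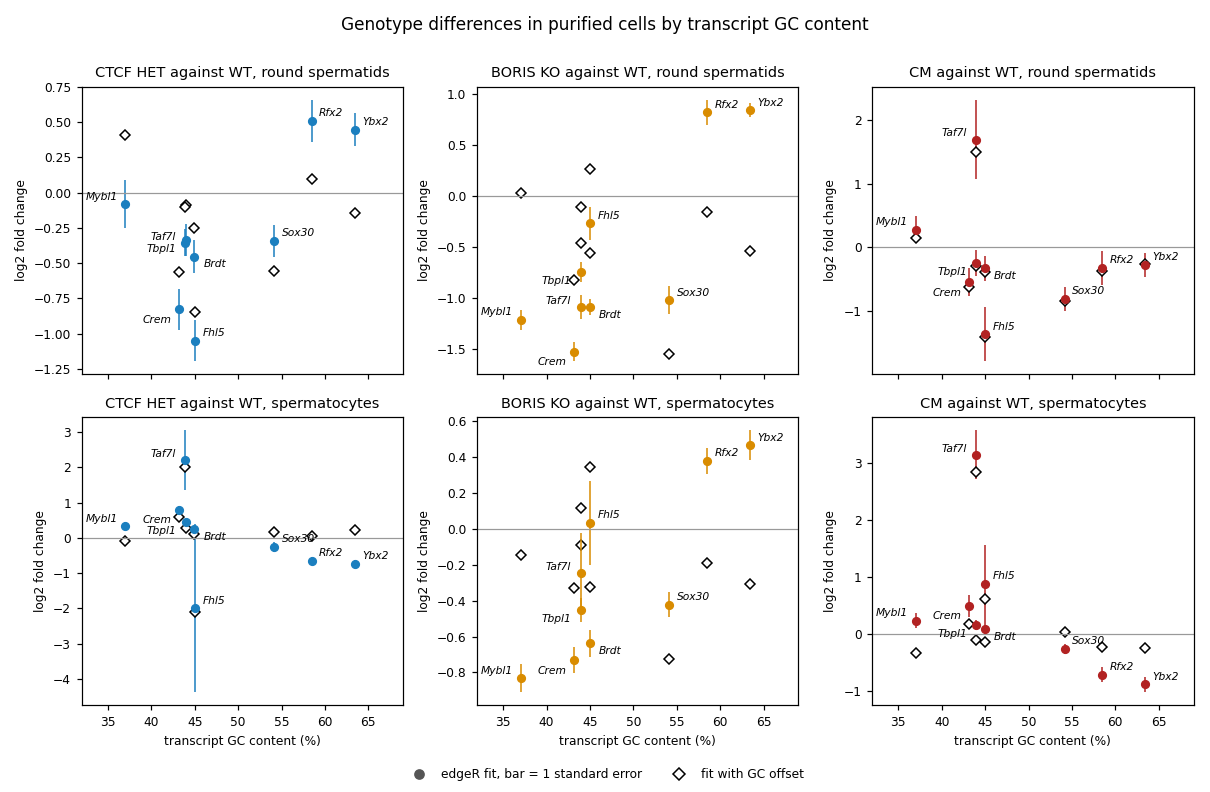
Log2 fold change against WT of each member (y axis) over the GC content of its longest coding transcript in percent (x axis), for CTCF HET, BORIS KO and CM in RS and SC. Circles with bars give the edgeR value and 1 SE, and open diamonds the value of the fit with a GC offset. In BORIS KO the 2 GC-rich genes at the right, Rfx2 and Ybx2, lie above 0 as circles and below 0 as diamonds in both cell types.

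Crem and Fhl5 were the most lowered members in the RS libraries labelled CTCF HET, in which Ctcf RNA overlapped WT. There, 4 members were lower (12.8% of all genes) and 2 higher (9.51%). Fhl5 read 18.5, 17.0 and 22.9 CPM in CTCF HET against 36.4, 42.3 and 43.5 in WT, 2.07-fold lower (log2 fold change -1.05, SE 0.15, adjusted p = 0.00346), and Crem 489, 351 and 484 CPM, 1.78-fold lower (-0.83, SE 0.14, adjusted p = 0.00667). Neither gene overlapped WT. Brdt (-0.45, SE 0.12, adjusted p = 0.0255) and Taf7l (-0.35, SE 0.098, adjusted p = 0.0335) were lower, and Ybx2 (0.45, SE 0.12, adjusted p = 0.0291) and Rfx2 (0.51, SE 0.15, adjusted p = 0.0406) higher. Sox30 (334, 276 and 348 CPM, -0.34, SE 0.11, adjusted p = 0.0561) and Tbpl1 (772, 645 and 781 CPM, -0.33, SE 0.11, adjusted p = 0.0604) lay under every WT library without passing, and Mybl1 overlapped (-0.082). With the GC offset, Crem (-0.56) and Fhl5 (-0.85) stayed lower and called, Sox30 was called lower (-0.56) and Mybl1 higher (0.41), and the remaining 5 were not called. In these libraries the difference between GC-rich and GC-poor genes was 0.38 to 0.91 on the log2 scale. Without WT replicate 2, WT replicate 3 or CTCF HET replicate 1, 2 members were called, and without WT replicate 1, 8. Of the CREM-dependent genes, 7 of 12 were lower. The 13 round spermatid markers, none of them at 0, summed to between 1429 and 1600 CPM in CTCF HET RS against 2415 to 2670 in WT RS. The 10 spermatocyte markers summed to between 2320 and 3265 CPM against 3908 to 4459. The part of either list in the Crem and Fhl5 values was not tested.

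In the RS libraries labelled CM, in which Ctcf RNA overlapped or exceeded WT, Sox30, Fhl5 and Crem lay under WT and Taf7l above it in every library, without passing the test. edgeR called 0 of 9 members (0.00654% of all genes). DESeq2 called 3 (1797 genes in all), and 4 had an unadjusted p under 0.05 (3136 of 15298 genes). Those 4 were Crem, Fhl5, Sox30 and Taf7l. Sox30 read 271, 168 and 225 CPM in CM, all under WT (-0.81, SE 0.19, adjusted p = 0.137), and it passed without CM replicate 1 (-0.94, adjusted p = 0.0435). Fhl5 read 20.8, 17.3 and 6.33 CPM, with replicate 3 the lowest (-1.36, SE 0.42, adjusted p = 0.174), and Crem 483, 392 and 669.8 CPM (-0.55, SE 0.22, adjusted p = 0.216). Neither overlapped WT. Taf7l lay above WT in every CM library, at 75.1, 420.1 and 107 CPM, but its log2 fold change of 1.70 (SE 0.63, adjusted p = 0.197) came mostly from replicate 2, without which it was 0.44 (adjusted p = 0.252). The same library held 389 CPM of 10 spermatogonial markers, against 41.0 and 73.8 CPM in the other CM RS libraries and 25.7 to 33.3 in WT RS, with none of the 10 at 0 in a CM library, and their part in the Taf7l value was not tested. The round spermatid markers summed to between 1062 and 1448 CPM in CM RS. Ybx2 (-0.27) and Brdt (-0.33) also lay under WT in every library, and Rfx2 (-0.32), Tbpl1 (-0.25) and Mybl1 (0.28) overlapped. For the CREM-dependent genes the median log2 fold change was -0.94, against -0.00013 over all genes, with 0 of 12 called by edgeR, 8 at an unadjusted p under 0.05 and 4 called by DESeq2. Akap4 (-1.20, adjusted p = 0.107), Hspa1l (-0.96) and Spata18 (-0.83) had its smallest p-values. Among the other regulators these were Spz1 (-0.97), Creb3l4 (-0.93) and Sox5 (-1.09). The flagellar list had a median of -0.26 (Tekt2 -0.66, Dnaic1 -0.60, Spag16 -0.37) and the A-MYB list 0.14 (Mov10l1 1.36, Tdrkh 0.97, Tdrd1 0.36). The paralogues had a median of -0.0051, with Sox6 at -0.91.

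By label CM RS and BORIS KO RS differ by 1 Ctcf copy, although Ctcf RNA was higher in every CM library (39.5 to 172 CPM against 24.4 to 29.0), and Crem, Mybl1 and Taf7l were higher and Ybx2 and Rfx2 lower in CM. The 3 higher members (12.3% of all genes) were Mybl1, at 148, 99.1 and 179 CPM in CM and 50.3, 54.2 and 50.5 in BORIS KO (1.44, SE 0.23, adjusted p = 0.0143), Crem (0.92, SE 0.22, adjusted p = 0.0309) and Taf7l (2.66, SE 0.65, adjusted p = 0.0318). The 2 lower ones (10.9% of all genes) were Ybx2, at 1403, 929 and 1168 CPM against 2574, 2489 and 2761 (-1.18, SE 0.23, adjusted p = 0.0190), and Rfx2 (-1.19, SE 0.30, adjusted p = 0.0329). All 5 were without overlap between groups, and the share of all genes without overlap is not given. Fhl5 was also under BORIS KO in every CM library (-1.17, SE 0.45, adjusted p = 0.102) and Brdt above it (0.70, SE 0.23, adjusted p = 0.0633), without passing. With the GC offset 0 of 9 members were called, and Ybx2 turned positive (0.32, adjusted p = 0.384). Leaving out any 1 BORIS KO library or CM replicate 3 also gave 0, and leaving out CM replicate 2 gave 7.

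In SC, BORIS KO again moved most members and in the same directions as in RS. There, 5 were lower (28.1% of all genes) and 2 higher (29.1%). Mybl1, which was higher in SC than in RS in WT, fell from 352 and 297 CPM in WT to 179, 178 and 192 CPM, 1.78-fold (-0.83, SE 0.077, adjusted p = 4.86e-06), and Crem from 283 and 243 to 152, 165 and 159 CPM, 1.66-fold (-0.73, SE 0.073, adjusted p = 6.50e-06). Brdt (634, 725 and 733 against 1126 and 1034 CPM in WT, -0.64, SE 0.076, adjusted p = 2.16e-05), Tbpl1 (-0.45, SE 0.065, adjusted p = 8.82e-05) and Sox30 (-0.42, SE 0.069, adjusted p = 0.000238) were lower too. Ybx2 (3794, 4189 and 4087 against 2673 and 3130.1 CPM in WT, 0.47, SE 0.083, adjusted p = 0.000425) and Rfx2 (0.38, SE 0.074, adjusted p = 0.000847) were higher. No library of these 7 genes overlapped the 2 of WT, and the share of all genes without overlap is not given. All 7 calls held with any 1 BORIS KO library left out. Fhl5 and Taf7l, near 1 CPM, were not called. GC-rich genes exceeded GC-poor ones by 0.79 to 0.83 on the log2 scale in these libraries, and with the GC offset Ybx2 (-0.31, adjusted p = 0.00717) and Rfx2 (-0.19, 0.0432) turned to lower. Crem (-0.33), Sox30 (-0.72), Brdt (-0.33) and Mybl1 (-0.14, adjusted p = 0.0411) stayed lower, and Tbpl1 (-0.089) was not called. The 10 spermatocyte markers summed to between 3078 and 3222 CPM in BORIS KO SC against 5051 to 6228 in WT SC, and their part in these values was not tested.

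In the SC libraries labelled CTCF HET, in which Ctcf RNA overlapped or exceeded WT, Crem and Tbpl1 were higher and Ybx2 and Rfx2 lower than in WT, each with the opposite sign to CTCF HET RS, and the difference between the cell types was not tested. Crem, at 426, 471 and 471 CPM against 283 and 243 in WT, was 1.74-fold higher (0.80, SE 0.10, adjusted p = 0.00620), and Tbpl1 (0.46, SE 0.085, adjusted p = 0.0140) was higher as well, 2 members where 6.77% of all genes were higher. Ybx2, at 1899, 1654 and 1643 CPM against 2673 and 3130.1, was 1.67-fold lower (-0.74, SE 0.11, adjusted p = 0.00905), and Rfx2, at 244, 276 and 263 CPM against 385 and 439, was lower (-0.65, SE 0.10, adjusted p = 0.00966), 2 members where 8.76% of all genes were lower. All 4 were without overlap, and the share of all genes without overlap is not given. In these libraries GC-rich genes were below GC-poor ones by 0.67 to 0.73 on the log2 scale, the reverse of CTCF HET RS. With the GC offset Crem remained called (0.58, adjusted p = 0.0223) and the other 3 were not. Without CTCF HET replicate 2, 0 members were called, without CTCF HET replicate 1, 2, and without CTCF HET replicate 3, 6. Round spermatid markers summed to 165, 168 and 96.9 CPM in these libraries against 51.7 and 52.5 in WT SC, with 1 of the 13 at 0 in each CTCF HET library. Spermatocyte markers summed to between 7398 and 8043 CPM against 5051 to 6228. The part of either list in these values was not tested.

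The SC libraries labelled CM, in which Ctcf RNA also overlapped or exceeded WT, gave 1 called member, Taf7l, where 0.38% of all genes were higher. It read 6.21, 9.40 and 14.4 CPM in CM and 1.13 and 1.20 CPM in WT. Every CM library was above WT, at 8.85-fold higher (3.15, SE 0.43, adjusted p = 0.0452). The fold stayed between 2.79 and 3.41 on the log2 scale with any library left out, but only the fit without CM replicate 1 called it. In that fit 6 members were called, and without any other 1 library 0. CTCF HET SC showed the same tendency in 2 of 3 libraries (8.13, 6.78 and 1.05 CPM, 2.20, SE 0.84, adjusted p = 0.129). Ybx2, at 1763, 1401 and 1395 CPM in CM (-0.89, SE 0.13, adjusted p = 0.0502), and Rfx2, at 285, 228 and 217 CPM (-0.72, SE 0.14, adjusted p = 0.0593), were under WT in every library and just missed the threshold. With the GC offset Taf7l was still called (2.84, adjusted p = 0.0283). Round spermatid markers summed to 61.9, 131 and 219 CPM in CM SC replicates 1 to 3, the same order as Taf7l, against 51.7 and 52.5 in WT SC. Spermatocyte markers summed to between 6512 and 9891 CPM against 5051 to 6228. The part of either list in the Taf7l value was not tested.

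In chromatin, CTCF peaks at 3 members were absent from the CM list. Of the 8 WT CTCF peaks in the members and 2 kb around them, 3 had no overlapping CM CTCF peak, as did 43.9% of all 34625 WT CTCF peaks. They ranked above 48.3%, 31.0% and 36.5% of the WT list by height, and were at Mybl1 (chr1:9690310-9690540, 133 bp before the start), at Rfx2 before its start, and in a Brdt exon at the end of the gene (chr5:107815501-107815849). Of the 3 members with a WT CTCF peak within 1 kb of a start, Mybl1 and Rfx2 had lost it and Crem had not, so 1 member had such a peak in CM (9.60% of all annotated genes). Among all WT CTCF peaks within 1 kb of a start 67.3% had no overlapping CM peak. The kept ones were those of Crem, Ybx2 (above 92.4% of the WT list), Tbpl1 (34.3%) and 2 introns of Rfx2 (69.7% and 48.3%), so that lost and kept peaks overlapped in height. At Crem the WT CTCF peak covers the first exon (chr18:3337333-3338123), ranks above 99.4% of its list, contains a BORIS peak (chr18:3337575-3337780) and overlaps a CM CTCF peak that ranks above 97.6% of the CM list. Heights are not compared between lists, since what they are relative to is not stated. CM had 2 CTCF peaks that WT did not, in introns of Mybl1 (chr1:9686979-9687222) and Sox30 (chr11:45829687-45829893), above 34.0% and 15.3% of the CM list by height. Fhl5 and Taf7l had no CTCF peak in WT or CM and no BORIS peak in WT, within the gene or 2 kb of it. With 1 list per antibody and genotype there was no replicate error for any peak.

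Pol2 and H3K4me3 peaks marked a start of all 9 genes in WT and in CM, where 40.2% and 47.4% of 21872 annotated genes had a Pol2 peak within 1 kb of a start and 52.6% and 57.3% an H3K4me3 peak. The share of the gene under Pol2 peaks went from 34.2% in WT to 13.4% in CM for Crem and from 19.3% to 2.75% for Fhl5, which kept 1 of 4 peaks. Sox30 went from 58.0% to 28.8%, Mybl1 from 17.8% to 3.47% and Tbpl1 from 40.8% to 27.9%. In each of these 5 genes a Pol2 peak over the first start was still called in CM. Rfx2 went from 16.5% to 22.1%, Brdt (36.4% and 36.8%), Taf7l (8.44% and 9.04%) and Ybx2 (100% and 99.8%) hardly differed, and the median over genes with a Pol2 peak was 9.96% in WT and 10.8% in CM. Rfx2 was lower in CM testis RNA with more of the gene under Pol2 peaks. Ybx2 was lower in RNA too, but with its gene wholly under Pol2 peaks in WT the share was at its ceiling. The share counts length and not signal, so it could not show less Pol2 within the peaks. Mybl1 had a smaller share in CM, with testis RNA close to WT. How many of all genes had a smaller share in CM is not given, so these changes are not read as particular to the members. The lists come from whole germ cell suspensions. In RNA of such suspensions the round spermatid markers were lower in CM, and the part of cell content in these shares was not tested.

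**Figure D4:**
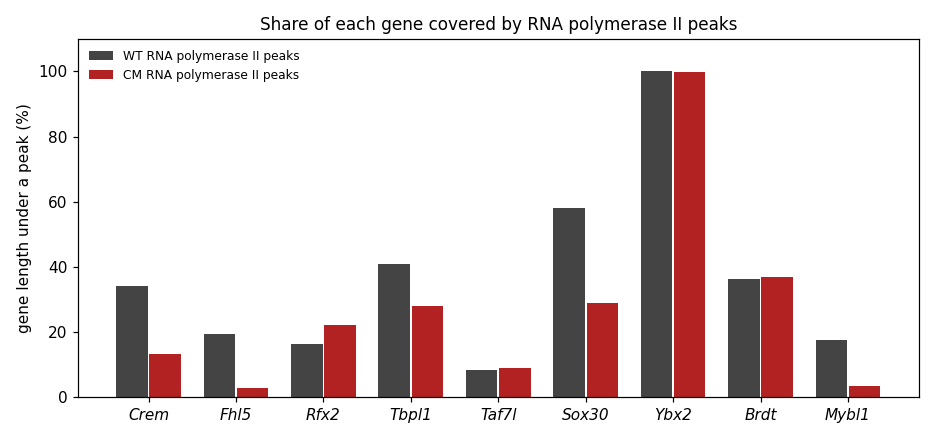
Share of each gene, in percent of its length, that lies under Pol2 peaks in WT and in CM germ cells, as bars from 0, with 1 peak list per genotype and so no error. The share is smaller in CM for Crem, Fhl5, Mybl1, Sox30 and Tbpl1 and about equal for Brdt, Taf7l and Ybx2.

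Over the 23 purified libraries, each member had genes that followed it closely, given here as a description of libraries that differ by cell type, genotype and GC trend. By Pearson r of log2 CPM among 17314 genes, Crem was nearest to Usp15 (r = 0.992), 4930403N07Rik and Lrrc6, and Fhl5 to Cct8l1 (0.993), Ccin and Tppp2. Mybl1 was nearest to Cspp1 (0.993), Rfx2 to Atxn2l (0.991), Taf7l to Thoc2 (0.989), Huwe1 (0.988) and Tex16 (0.985), and Brdt to Sltm (0.978). Ybx2 was nearest to Syngr4 (0.977), Tbpl1 to Mff (0.965) and Sox30 to Ddhd1 (0.880). Sox30 had the least close neighbours of the set, and the nearest gene differed for each of the 9 members. No p-value is given, since the libraries were not independent points. Exon sequence is shared with a gene on the other strand by Crem (with Gm6225) and Tbpl1 (with Slc2a12), and without knowledge of the strand used in counting their reads cannot be told apart from those genes.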

How the data were processed

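Germ cells, RNA-seq libraries and ChIP-seq were made by the authors, who deposited raw counts per gene for whole testis (reads aligned with TopHat2 and Bowtie2) and for RS and SC (STAR). The counting tool, annotation and strand setting are not given in the sources used here. For ChIP-seq the authors aligned reads to mm9 with Bowtie2 and deposited peak lists from MACS, with PeakSplitter for CTCF and BORIS. The deposited value of a CTCF or BORIS peak is its height, a signal, and that of a Pol2 or H3K4me3 peak the MACS score. CTCF, BORIS and Pol2 lists come from 2 replicates, combined in a way not stated, and H3K4me3 lists from 1 sample each. The submitters' processing notes also name Cufflinks 2.0.0 and DESeq2.

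Counts were tested with edgeR 4.0.16 (TMM scaling, filterByExpr, robust quasi-likelihood F test, Benjamini-Hochberg adjustment over all genes tested) in R 4.3.3, between the libraries of the 2 groups named, and a gene is called at an adjusted p under 0.05. Every adjusted p is from this test unless another is named, and SE is that of the log2 fold change. Where groups are said not to overlap, the share of all genes without overlap is not given, so it is not read as particular to the members. The interaction was fitted on WT and CM libraries of RS and SC. DESeq2 1.42.0, other scaling, filters, fits and thresholds, the replicate block and leaving out each library were alternatives. The GC offset was a lowess (span 0.3) in each library, on transcript GC content, of the deviation of log2 CPM from the gene's mean. It was added after the data were seen. Scripts were checked on simulated counts, in which DESeq2 made a larger share of false calls than edgeR at both spreads tried. The limit on false calls was applied to the edgeR fits alone, so counts from DESeq2 are weaker. Of the 23284 genes, 21872 were found in GENCODE M1 (mm9), which gave lengths, loci and, for 20252, GC content of the longest coding transcript. CPM use scaling factors over all libraries of a table. Peaks were taken as overlapping from 1 bp, and a gene's peaks within 2 kb of it.

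Groups follow the labels. Whole testis preparations were independent pools of 4 mice, so their p-values measure the spread between preparations. For RS and SC it is not stated that each library came from a separate pool, so theirs measure the spread between libraries. Whether replicate numbers pair the libraries was checked from deviations from group means: in whole testis all 18 same-numbered pairs of libraries correlated over 0.1 (0.121 to 0.631), in RS 4 of 18 and in SC 1 of 15, so that the numbers pair only the testis libraries. The main testis fits had no replicate block, so the spread behind their p-values includes what same-numbered libraries share. The members and gene lists were chosen with earlier results of these data known. Named were all members, Ctcf, Ctcfl and Rltpr, the 3 genes of each list with the smallest p in CM testis, in CM RS and in WT RS against SC, and the 3 nearest patterns of each member, except for 1 gene that is not reported here. Depth was 10437683 to 42055813 counts in testis and 47740650 to 98545423 in purified cells, and no per-sample column was left unused.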

Additional observations from a re-analysis of the deposited data

Results flagged for a closer look

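Every CTCF HET library of Crem, Tbpl1, Brdt, Rfx2 and Ybx2 lay on one side of WT in RS and on the other in SC. The share of all genes with this pattern is not given here, so it is not read as particular to these members. The log2 fold changes were -0.83 in RS and 0.80 in SC for Crem, -0.33 and 0.46 for Tbpl1, and -0.45 and 0.24 for Brdt. For Rfx2 they were 0.51 in RS and -0.65 in SC, and for Ybx2 0.45 and -0.74. The difference between RS and SC was not tested for any of them. The 3 genes that were lower in RS and higher in SC hold 43.2% to 45.0% G and C in their transcripts, and Rfx2 and Ybx2 hold 58.5% and 63.4%. The library trend with GC content ran up by 0.38 to 0.91 on the log2 scale in CTCF HET RS and down by 0.67 to 0.73 in CTCF HET SC.

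Taf7l lay above every WT library in BORIS KO testis (log2 fold change 0.43) and below every WT library in BORIS KO RS (-1.09). This difference was not tested, and the 2 tables differ in RNA selection and sequencing platform.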

How the results depend on the processing

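Counts of called members were compared over 134 alternative values of 24 results, of which 102 stayed within 1.5 times the count given and 32 did not. At an adjusted p under 0.001 with more than 2-fold change, the call was lost by all members in CM testis, CTCF HET RS, CTCF HET SC, BORIS KO SC, CM SC, CM against BORIS KO RS and RS against SC in CM (0 called), and 5 remained called in BORIS KO RS, 4 in RS against SC of WT, 2 in that of CTCF HET and 3 in that of BORIS KO. DESeq2 called 3 members in CM RS, 7 in CTCF HET SC, 4 in CM SC and 3 in CM against BORIS KO testis. All groups in one fit gave 1 in CTCF HET RS, 4 in CM RS, 3 in CM SC, 1 in CM against BORIS KO testis and 6 in RS against SC of CM. In CM SC, RLE scaling gave 2 and no filter on low counts 2. The GC offset gave 5 in BORIS KO RS, 1 in CTCF HET SC and 0 in CM against BORIS KO RS. Among peaks, the upper 50% of the WT CTCF list had a peak near a start of 1 member in place of 3, and windows of 2 kb and 5 kb gave 2 and 3 members in CM CTCF in place of 1. The cause of these changes was not tested.

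With the replicate block, 1 member was called in BORIS KO testis and 2 in CM against BORIS KO testis, and with the GC offset and replicate block together 3 and 1. Small values changed sign under the replicate block for Fhl5 in BORIS KO SC (-0.15), Mybl1 in CM against BORIS KO testis (-0.020), Crem in RS against SC of CTCF HET (-0.010) and the interaction of Mybl1 (0.048). With GC offset and replicate block these were Crem (0.023), Ybx2 (-0.085) and Mybl1 (0.030) in CTCF HET testis and Mybl1 (-0.016) in CM against BORIS KO testis. The interaction of Mybl1 was 0.0089 without a filter, and Brdt in RS against SC of WT -0.0059 with all groups in one fit.

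The GC offset turned 28 of 135 values. In CTCF HET they were Crem (0.039), Ybx2 (-0.065) and Mybl1 (0.038) in testis, Ybx2 (-0.15) and Mybl1 (0.41) in RS, and Rfx2 (0.047), Sox30 (0.17), Ybx2 (0.21) and Mybl1 (-0.10) in SC. In BORIS KO they were Fhl5 (0.27), Rfx2 (-0.16), Ybx2 (-0.54) and Mybl1 (0.033) in RS and Rfx2 (-0.19), Taf7l (0.11) and Ybx2 (-0.31) in SC. In CM SC they were Tbpl1 (-0.11), Sox30 (0.025), Brdt (-0.14) and Mybl1 (-0.33), and in CM against BORIS KO RS Tbpl1 (-0.19) and Ybx2 (0.32). Between RS and SC they were Rfx2 (0.13) and Brdt (-0.21) in WT and Crem (-0.027), Rfx2 (-0.054), Sox30 (-0.017) and Ybx2 (-1.25) in CTCF HET. RLE scaling turned 0 of 144 values and DESeq2 0 of 135.

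With each library left out in turn, the number of called members ran from 0 to 4 in CM testis, 2 to 8 in CTCF HET RS, 8 to 9 in BORIS KO RS, 0 to 1 in CM RS, 0 to 6 in CTCF HET SC, 0 to 6 in CM SC, 0 to 7 in CM against BORIS KO RS, 7 to 8 in RS against SC of WT, 2 to 3 in that of CM and 0 to 1 in the interaction. It stayed at 0 in CTCF HET testis, BORIS KO testis and CM against BORIS KO testis, at 7 in BORIS KO SC, and at 6 and 8 in RS against SC of CTCF HET and BORIS KO. Where 1 WT SC library remained, it was taken to vary like the others. Of the log2 fold changes, those that changed sign ran in CTCF HET testis from -0.31 to 0.20 for Crem, -0.50 to 0.0061 for Tbpl1, -0.28 to 0.099 for Taf7l, -0.15 to 0.12 for Sox30, -0.14 to 0.39 for Ybx2, -0.43 to 0.023 for Brdt and -0.35 to 0.11 for Mybl1. In BORIS KO testis they ran from -0.32 to 0.022 for Ybx2 and -0.24 to 0.16 for Brdt, and in CM testis from -0.26 to 0.13 for Taf7l and -0.36 to 0.085 for Mybl1. Mybl1 ran from -0.22 to 0.10 in CTCF HET RS, -0.21 to 0.25 in CM against BORIS KO testis and -0.21 to 0.17 in the interaction. Fhl5 in BORIS KO SC ran from -0.16 to 0.19, Sox30 in CM against BORIS KO RS from -0.058 to 0.31, Crem in RS against SC of CTCF HET from -0.036 to 0.17, and Sox30 in that of BORIS KO from -0.12 to 0.20. In RS against SC of CM, Rfx2 ran from -0.071 to 0.43, Tbpl1 from -0.033 to 0.26 and Sox30 from -0.080 to 0.22.

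Counts over all genes moved by more than 1.5 times in several fits. In CM testis, 4135 genes were called, 7043 with the replicate block and 7454 with the GC offset added. In BORIS KO testis 9 were called, 386 by DESeq2, 20 without a filter, 1077 with the block and 1898 with the GC offset added, and in CTCF HET testis 1, 3, 42 with the block and 16 with the GC offset added. CM against BORIS KO testis gave 1, DESeq2 1201, all groups in one fit 379, the block 1225 and the GC offset with the block 1791. In RS, CTCF HET gave 3405 (all groups 480), BORIS KO 8658 (all groups 5014, GC offset 5743), CM 1 (DESeq2 1797, all groups 2899) and CM against BORIS KO 3613 (DESeq2 5837, all groups 6922, GC offset 602). In SC, CTCF HET gave 2119 (no filter 1376, all groups 3231, GC offset 958), BORIS KO 8207 (all groups 2219) and CM 89 (DESeq2 3225, all groups 2002, GC offset 421). RS against SC of CM gave 4202 and 8627 with all groups, and the interaction 599 and 258 with the block. The threshold of an adjusted p under 0.001 with more than 2-fold change gave 0 genes in CM testis, BORIS KO testis, CM RS, CTCF HET SC, CM SC and both CM against BORIS KO comparisons, 1 in CTCF HET RS, 2404 in BORIS KO RS, 684 in BORIS KO SC, and in RS against SC 5726 of WT (11237 without it), 2254 of CTCF HET (7844), 7440 of BORIS KO (12925) and 120 of CM. Fhl5 and Taf7l in SC rested on few reads, 64 to 91 counts a library in WT and 0 to 33 counts for Fhl5 in CTCF HET.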
